A study of Mus musculus with 11 samples.

Results

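*Rag1*, *Rag2* and *Dntt* were followed through 9 ATAC-seq libraries of mouse lymphoid cells. The members were all called peaks that overlapped by at least 1 bp the body of 1 of the 3 genes in mm10 extended by 100 kb on each side. Merged over the libraries, they formed 34 intervals of the 71400 in the whole series, 18 around *Rag1* and *Rag2* and 16 around *Dntt*, and the 3 genes are among 21938 protein-coding genes. The rule used position only, and no score or cell type.

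ATAC-seq marks accessible chromatin by letting a transposase cut and tag it. It was applied to freshly sorted cells of 4 types from untreated C57BL/6 mice that carried no deletion of a regulatory region: CD4 single positive (CD4SP) thymocytes (2 libraries), NKT thymocytes, which the study's methods enrich with a CD1d tetramer (2 libraries), common lymphoid precursors (CLP) of the bone marrow (3 libraries) and innate lymphoid cell precursors (ILCP) of the bone marrow (2 libraries). The labels name no age, and the methods give a single range of weeks for all mice. CLP were sorted as lineage-negative cells with IL-7Ra, high Flt3 and intermediate cKit and Sca-1. ILCP were sorted as lineage-negative, IL-7Ra and a4b7 positive cells with eGFP, which the study's reporter mice express from the *Zbtb16* locus, after enrichment on beads for a4b7; the labels name no reporter allele for this group. The study set NKT against CD4SP in the thymus and ILCP against CLP in the bone marrow.

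Each library came as a list of peaks with a score from the peak caller, and scores were used only as ranks within a library, where a peak "in the upper 10%" stands at that position when the library's peaks are ordered from the highest score. An interval was called open in a library when a peak covered at least 1 bp of it. The libraries held 19343 to 41535 peaks, with the fewest in CLP replicate 1, and 25771 and 26328 in the ILCP libraries. The methods give only a single range of reads for the libraries together, so the depth of each is unknown, and where no peak was called the site may be closed or merely missed. CLP replicate 1 stands apart from the other 2 CLP libraries, and the values of CLP are given with and without it. The labelled types were compared with their markers by an interval open within 1 kb of the start. All 5 CD4SP markers were open in the 4 thymic libraries; of these *Cd3e* and *Cd3g* were open in 0 of 5 bone marrow libraries, *Cd4* and *Themis* also in both ILCP libraries, and *Ccr7* in 8 libraries. Among NKT markers, *Il2rb* was open in the 4 thymic libraries, *Zbtb16* in both NKT libraries, both ILCP libraries and CLP replicate 2, and *Tbx21* in NKT replicate 2 only. Among CLP markers, *Flt3* was open in the 5 bone marrow libraries alone, *Kit* in these and NKT replicate 2, *Il7r* in 8 libraries and *Ly6d* in CLP replicate 2 only. Among ILCP markers, *Id2*, *Pdcd1* and *Itga4* were open in all 9 libraries, *Gata3* in 8 and *Tcf7* in the CD4SP libraries only. Of markers of other cells, 2 of 5 for myeloid cells (*Lyz2* and *Csf1r*) and 1 of 4 for double positive thymocytes (*Ptcra*) were closed everywhere. Of B lineage markers, *Cd79a* and *Pax5* were likewise closed in every library, *Cd79b* was open in CLP replicate 2, and *Ebf1* and *Vpreb1* in all 9. *Cebpa*, a myeloid factor gene, was open in 8 libraries, and *Cd8b1* in both CD4SP libraries and NKT replicate 2.

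RAG1 and RAG2 together form the recombinase that cuts DNA at the recombination signals beside the V, D and J segments of antigen receptor genes, and terminal deoxynucleotidyl transferase, the product of *Dntt*, adds bases without a template to the ends before they are joined. Lymphoid precursors turn these genes on, mature T cells keep them off once a receptor has been selected, and innate lymphoid cells develop without a rearranged receptor. An enhancer and an anti-silencer are known upstream of *Rag2*; their positions are in none of the files used here, and no interval was matched to them.

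*Rag2* (ENSMUSG00000032864.4) lies at chr2:101624718-101632529 on the plus strand and *Rag1* (ENSMUSG00000061311.6) at chr2:101638282-101649501 on the minus strand (mm10, GENCODE M21). Their bodies point at each other across a gap of 5752 bp, their start sites are 24783 bp apart, and 92% of the *Rag1* window and 93.5% of the *Rag2* window are the same bases, so both were described as 1 Rag locus, chr2:101524718-101749501. A further protein-coding gene, *B230118H07Rik*, spans both on the minus strand and starts 31 bp from *Rag1*, so that a peak there belongs to both starts. *Dntt* (ENSMUSG00000025014.13) lies at chr19:41029275-41059525 on the plus strand, between *Blnk* and *Opalin*, and its window is chr19:40929275-41159525. Intervals are numbered along the chromosome from the lower coordinate.

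Before the peaks, the bases themselves are shown for the 3 promoters, since peaks at these starts differed between the cell types. Each run is the 250 bases before the RefSeq start site (GRCm38.p6), 5′ to 3′ on the gene's strand. Capitals mark matches, on either strand, to 7 short words: an E-box (CAGCTG or CAGGTG), a Runx word (TGTGGT or TGCGGT), an Ets word (AGGAAG), an Ikaros word (TGGGAA), the Gata word (AGATAA), a Foxo word (GTAAACA) and a Myb word (AACTG). No match overlapped another in the runs shown.
*Rag1*, chr2:101649533-101649782, minus strand: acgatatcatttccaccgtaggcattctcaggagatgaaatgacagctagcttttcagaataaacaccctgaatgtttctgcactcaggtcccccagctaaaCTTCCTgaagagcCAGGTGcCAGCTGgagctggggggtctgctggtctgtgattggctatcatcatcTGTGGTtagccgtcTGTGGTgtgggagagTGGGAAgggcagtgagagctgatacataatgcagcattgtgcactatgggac
*Rag2*, chr2:101624462-101624711, plus strand: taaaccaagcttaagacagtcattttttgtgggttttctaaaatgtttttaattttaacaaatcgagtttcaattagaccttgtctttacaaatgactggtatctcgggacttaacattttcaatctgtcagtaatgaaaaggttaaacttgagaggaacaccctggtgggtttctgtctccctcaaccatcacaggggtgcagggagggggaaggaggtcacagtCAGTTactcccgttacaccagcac
*Dntt*, chr19:41029025-41029274, plus strand: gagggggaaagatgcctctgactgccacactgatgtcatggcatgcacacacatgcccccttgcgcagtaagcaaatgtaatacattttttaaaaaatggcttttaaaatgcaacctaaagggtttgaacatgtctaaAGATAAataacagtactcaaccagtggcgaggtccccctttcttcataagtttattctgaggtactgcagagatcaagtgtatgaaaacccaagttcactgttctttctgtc

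The *Rag1* promoter held 6 matches, all within 148 bases of the RefSeq start. An Ets word lay at -148 to -143, E-boxes at -135 to -130 and -128 to -123, Runx words at -81 to -76 and -67 to -62, and an Ikaros word at -52 to -47. The *Rag2* promoter held only a Myb word, at -24 to -20, and the *Dntt* promoter only a Gata word, at -112 to -107. Among all 32851 RefSeq promoters, counted from 250 bases before to 50 after the start, 32.9% held an E-box, 22.4% a Runx word, 35.4% an Ets word, 25.6% an Ikaros word, 11.2% a Gata word, 3.6% a Foxo word and 44.8% a Myb word. A match is a string of letters and not a bound site. Positions in this paragraph count from the RefSeq start, which differs from the GENCODE start by 31 bp for *Rag1* and 6 bp for *Rag2* and by 0 for *Dntt*; distances of peaks count from the GENCODE start.

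The start base of each of the 3 genes was covered by a peak in CLP libraries and in 0 of the 6 other libraries. For *Rag1* this held in 3 of 3 CLP libraries, and for *Rag2* and *Dntt* in 2 of 3, CLP replicate 1 being the exception. Of the 21938 genes, 2.81% had a start base covered in 2 or 3 CLP libraries and in no other library; this rule was chosen after the values were seen. In single libraries the start base was covered for 49.1% and 49.6% of all genes in CLP replicates 3 and 2, for 32.2% in CLP replicate 1, for 34.2% and 35.3% in the ILCP libraries and for 42.2% to 47.6% in the thymic libraries. When an interval within 1 kb of the start was asked for in place of the start base, *Rag1* remained the 1 member open in every CLP and no other library, which 0.315% of all genes were, and the 1 member open in every CLP and no ILCP library, which 1.54% were. *Rag2* had no peak within 1 kb in CLP replicate 1 and a low peak upstream in both ILCP libraries, and *Dntt* was open by that rule in all libraries but ILCP replicate 2.

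At *Rag1* the CLP peaks were of moderate rank and close in extent. They ran from -549 to 300, -600 to 493 and -543 to 522 bp around the start in replicates 1, 2 and 3, and stood in the upper 34.4%, 33.4% and 32.2% of their libraries. These were also the only peaks that touched the *Rag1* body in any library. The nearest peak was 3104 and 3117 bp away in the CD4SP libraries, 11738 and 11772 bp in the NKT libraries and 15727 and 19921 bp in the ILCP libraries. Among the 12527 intervals that ranked at least as high in both CLP replicates 2 and 3, 9.36% lacked a peak in CLP replicate 1; the *Rag1* start was not among them.

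At *Rag2* the CLP peaks were wide and high. Replicate 2 had a peak of 2940 bp from -1886 to 1053 bp in the upper 10.8%, and replicate 3 one of 2883 bp from -1959 to 923 bp in the upper 10.7%. CLP replicate 1 had no peak there and its nearest lay 2557 bp away. Of the 4061 intervals that ranked as high in both other CLP libraries, 46 or 1.13% lacked a peak in replicate 1. The cause of its absence here was not tested. Both ILCP libraries had a narrow peak inside the same interval but short of the start, from -1021 to -291 bp in the upper 91.9% and from -1067 to -428 bp in the upper 84%. The 4 thymic libraries had none, with the nearest peaks 2526 to 7951 bp away.

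At *Dntt* the peaks of CLP replicates 2 and 3 were the widest, and the thymic cells kept a high peak inside the gene. CLP replicates 2 and 3 had peaks of 3098 and 3128 bp, from -451 to 2646 bp and from -601 to 2526 bp, in the upper 13.4% and 14.8%, and these spanned the start and part of intron 1. CLP replicate 1 had only the intronic part, from 1521 to 2270 bp, in the upper 88.7%. Of the 5587 intervals as high in both other CLP libraries, 109 or 1.95% lacked a peak in replicate 1, and this interval did not, since its intronic part was called. The NKT libraries had the intronic peak alone, from 1437 to 2466 bp and from 1303 to 2549 bp, in the upper 11.1% and 21%. The CD4SP libraries had it in the upper 12.2% and 19.4%, and in addition a peak that ended 1097 and 967 bp before the start, in the upper 49.4% and 61.7%. ILCP replicate 1 had an intronic peak in the upper 96.6%, near the lower end of its list, and the nearest peak of ILCP replicate 2 was 68248 bp from the start.

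**Figure D1:**
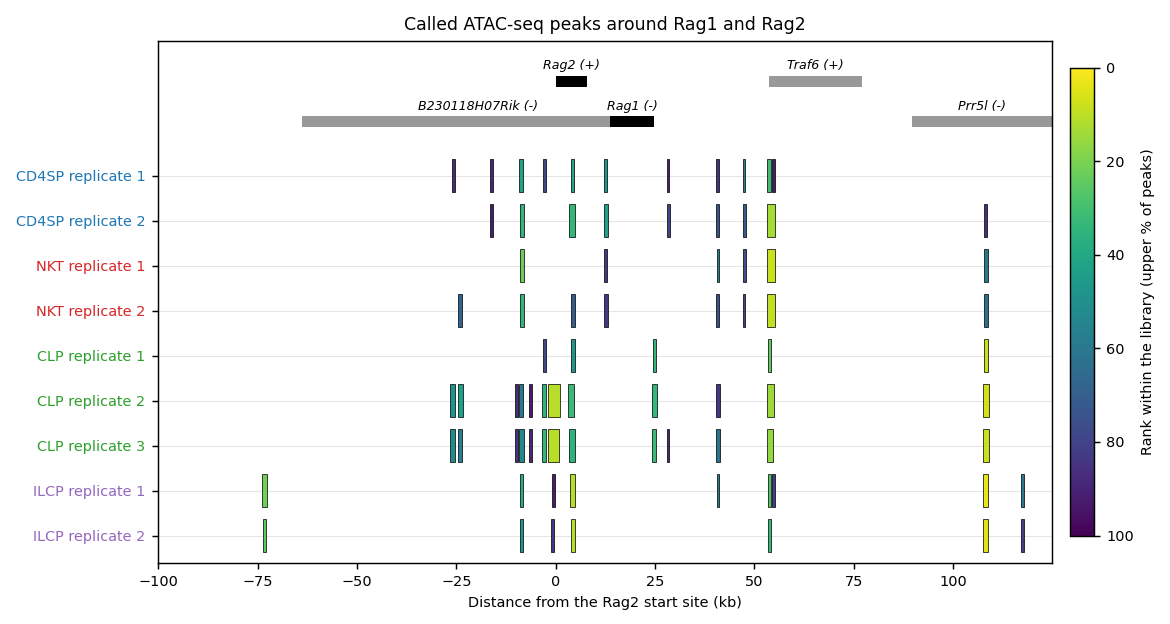
Called ATAC-seq peaks around *Rag1* and *Rag2* in the 9 libraries, with distance from the *Rag2* start site in kb on the x axis and 1 library per row. Each box is a peak at its true width and its colour is the rank within the library (upper % of peaks); black bars are the member genes and grey bars other genes. The *Rag1* start, at 24.8 kb, has boxes in the 3 CLP rows only, the *Rag2* start has wide boxes in CLP replicates 2 and 3, and an interval at -73.3 kb has boxes in the ILCP rows only.

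Around *Rag1* and *Rag2* the number of peaks did not separate the cell types. CD4SP replicates 1 and 2 had 11 and 9 peaks in the window, NKT replicates 6 and 8, CLP replicates 5, 12 and 13, and ILCP replicates 9 and 7. The CLP libraries thus held both the lowest and the highest count, and only NKT and CD4SP did not overlap. The means were 10 ± 1.41 (SD, n = 2) in CD4SP, 7 ± 1.41 (SD, n = 2) in NKT, 10 ± 4.36 (SD, n = 3) in CLP and 8 ± 1.41 (SD, n = 2) in ILCP. The difference NKT minus CD4SP was -3 peaks (two-sided exact permutation test, p = 0.333, the smallest that 2 against 2 libraries allow), and 7.39% of all genes had fewer peaks in both NKT than in both CD4SP libraries. It was -0.5 with gene bodies not extended and -1.5 without peaks at other genes' start sites. ILCP minus CLP was -2 (two-sided exact permutation test, p = 0.6; the smallest possible is 0.1), and it was -4.5 without CLP replicate 1, -0.5 without CLP replicate 3, and -1 without CLP replicate 2 or ILCP replicate 2. With all libraries in, the alternatives counted in peaks ran from -4 with gene bodies extended by 50 kb to 0 with the 19343 highest-scoring peaks of each library, and per 10,000 peaks the difference was 0.163. CLP minus the other types was 1.67 (two-sided exact permutation test, p = 0.452, smallest possible 0.0119), and without CLP replicate 1 it was 4.17 (two-sided exact permutation test, p = 0.0357). Without CLP replicate 2 it was 0.667 and without replicate 3 it was 0.167 (two-sided exact permutation tests, p = 0.893 and p = 1), and without peaks at other genes' start sites it was 0. These p-values measure only the spread between these libraries, since the labels do not say that they came from separate animals.

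Per 10,000 peaks of the library, the same window held 3.27 and 2.37 peaks in CD4SP, 1.73 and 2.06 in NKT, 2.58, 2.89 and 3.24 in CLP, and 3.42 and 2.72 in ILCP. On that scale ILCP were above CLP by 0.163 on average, so the direction of the difference turned with the scale (two-sided exact permutation test, p = 0.6). Peaks covered 8968 and 9344 bp of the window in CD4SP, 6383 and 8032 in NKT, 4389, 15903 and 16053 in CLP, and 7887 and 6397 in ILCP. Covered length was thus lowest in CLP replicate 1 and highest in CLP replicates 2 and 3.

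Around *Dntt* the ILCP libraries had the fewest peaks. They held 3 and 1, against 5, 10 and 10 in CLP, 10 and 11 in CD4SP and 7 and 8 in NKT. The ILCP counts overlapped with those of no other type, and the share of all genes for which this held was not computed. The ILCP lists, of 26328 and 25771 peaks, were shorter than all but that of CLP replicate 1. The means were 10.5 ± 0.707 (SD, n = 2) in CD4SP, 7.5 ± 0.707 (SD, n = 2) in NKT, 8.33 ± 2.89 (SD, n = 3) in CLP and 2 ± 1.41 (SD, n = 2) in ILCP. The difference ILCP minus CLP was -6.33 peaks (two-sided exact permutation test, p = 0.2; the smallest possible is 0.1), or -8 without CLP replicate 1 and -1.5 with gene bodies not extended, and 11.1% of all genes had fewer peaks in both ILCP than in all CLP libraries. The NKT and CD4SP counts did not overlap either, and 7.39% of all genes had fewer peaks in both NKT than in both CD4SP libraries. NKT minus CD4SP was -3 (two-sided exact permutation test, p = 0.333, the smallest possible). It was 0 with gene bodies not extended and -0.5 both with the 19343 highest-scoring peaks and with the higher-scoring 50% of peaks of each library (two-sided exact permutation tests, p = 1). Both selections of higher-scoring peaks brought ILCP minus CLP to -4. With both differences added and labels exchanged within each tissue, the sum was -9.33 (two-sided exact permutation test, p = 0.0333; smallest possible 0.0167), and after Benjamini-Hochberg adjustment over the 8 count tests this became 0.267. With a replicate block, which leaves out CLP replicate 3, the sum was -8.5 (two-sided exact permutation test, p = 0.125, the smallest the block allows). It was also -8.5 without CLP replicate 3 and no block, and -11 without CLP replicate 1. It was -1.5 with gene bodies not extended and -4.5 with either selection of higher-scoring peaks. For the Rag locus the sum was -5 (two-sided exact permutation test, p = 0.233), or -7.5 without CLP replicate 1 and -2 with the 19343 highest-scoring peaks of each library, and the adjusted values of the 8 tests ran from 0.267 to 0.6. CLP minus the other types was 1.67 peaks for *Dntt* (two-sided exact permutation test, p = 0.583). It was 3.33 without CLP replicate 1, 0.833 without CLP replicate 2 or 3, 0.933 without ILCP replicate 1, 0.533 without ILCP replicate 2, 0.333 without peaks at other genes' start sites, and -0.167 with gene bodies not extended. The p of the sum rose above 0.05, to between 0.0556 and 0.0667, when CD4SP replicate 2, NKT replicate 1 or any 1 of the CLP libraries was left out.

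Scaled to 10,000 peaks of the library, the *Dntt* window held 2.97 and 2.9 peaks in CD4SP, 2.02 and 2.06 in NKT, 2.58, 2.41 and 2.49 in CLP, and 1.14 and 0.388 in ILCP. The order of the types was the same as for the mean counts in both tissues, with ILCP again lowest, and here the 3 CLP libraries were close to each other. Covered length was 1825 and 461 bp in ILCP, against 3845, 12385 and 12765 in CLP, 8492 and 9537 in CD4SP and 5616 and 7502 in NKT.

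**Figure D2:**
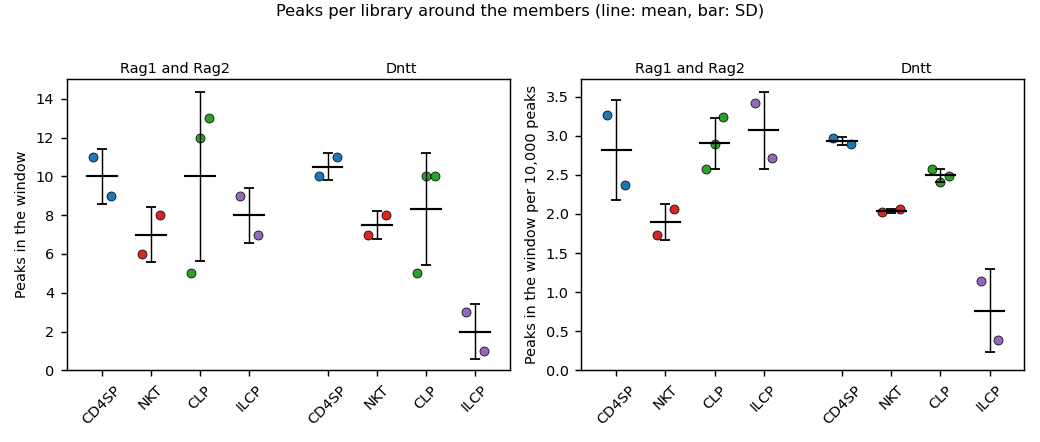
Peaks in the windows of the Rag locus and of *Dntt* per library, as counts (left) and per 10,000 peaks of the library (right), grouped by cell type; points are libraries, lines means and bars SD (n = 2 or 3). Both ILCP libraries have the lowest *Dntt* values on either scale, with 3 and 1 peaks, while the Rag counts overlap between CLP and every other type.

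Single intervals were compared by a rule that needs no score: open in every library of 1 type and in none of the type compared. Against CD4SP, NKT had 0 of the 34 intervals (6.48% of all intervals tested), and against NKT, CD4SP had 2 in the Rag locus and 2 around *Dntt* (5.21%). Against CLP, ILCP had 2 and 1 (8.67%), and against ILCP, CLP had 2 and 3 (8.18%). CLP against all other types had 1, the *Rag1* start, and 0 around *Dntt* (3.89%). The shares are of intervals open in at least 1 library of the types compared; of the members, 12 Rag and 11 *Dntt* intervals were open in a thymic library and 15 and 12 in a bone marrow library. Counts of 0 to 3 among so few are not read as a result. With 19343 peaks per library the CD4SP count around *Dntt* was 0, and with peaks required to cover 50% of an interval the ILCP count around *Dntt* was 0. By gene, within the body extended by 100 kb as for the members, 4.85% of all genes had at least the 3 CLP intervals that *Dntt* had against ILCP, 5.31% at least the 2 CD4SP intervals against NKT that each of the 3 genes had, and 14% at least the 2 CLP intervals against ILCP of *Rag1* and *Rag2*. In the other direction, 11% had at least the 2 ILCP intervals of *Rag1* and 32% at least the 1 of *Rag2* or *Dntt*, and 23.7% had at least 1 CLP interval against all other types.

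The bases at the centre of the called CLP intervals other than the *Rag1* start are shown next, since these intervals were open in every CLP library and in no ILCP library. In Dntt interval 9 the peak of CLP replicate 1 ended before the printed centre; in the other 3 intervals it covered it. Each run is the central 200 bases of the merged interval on the plus strand of GRCm38.p6, with capitals as above.
Rag interval 8, chr2:101621669-101621868: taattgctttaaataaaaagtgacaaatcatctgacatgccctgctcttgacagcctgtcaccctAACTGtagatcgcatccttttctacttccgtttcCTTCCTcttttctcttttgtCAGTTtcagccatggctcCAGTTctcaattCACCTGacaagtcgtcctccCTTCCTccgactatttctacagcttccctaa
Dntt interval 8, chr19:41022236-41022435: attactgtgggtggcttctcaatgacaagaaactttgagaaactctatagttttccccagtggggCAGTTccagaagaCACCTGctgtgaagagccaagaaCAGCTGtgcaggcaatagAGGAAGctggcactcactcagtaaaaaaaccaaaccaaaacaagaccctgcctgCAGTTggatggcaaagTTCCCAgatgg
Dntt interval 9, chr19:41027195-41027394: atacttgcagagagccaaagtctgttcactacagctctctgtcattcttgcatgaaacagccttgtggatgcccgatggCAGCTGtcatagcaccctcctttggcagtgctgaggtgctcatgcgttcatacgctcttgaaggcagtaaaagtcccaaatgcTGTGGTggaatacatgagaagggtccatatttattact
Dntt interval 11, chr19:41039267-41039466: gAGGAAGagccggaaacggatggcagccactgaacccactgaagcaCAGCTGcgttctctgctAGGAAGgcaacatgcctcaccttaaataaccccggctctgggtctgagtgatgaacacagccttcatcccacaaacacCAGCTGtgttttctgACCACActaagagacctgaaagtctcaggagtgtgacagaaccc

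Rag interval 8 lay at -3.0 kb from the *Rag2* start, in an intron of *B230118H07Rik* and within 1 kb of an annotated start of that gene. It ranked in the upper 78.5%, 35% and 34.3% in CLP replicates 1, 2 and 3 and in the upper 79.8% in CD4SP replicate 1, and was closed elsewhere. Its centre held 2 Ets words, an E-box and 3 Myb words. CLP replicates 2 and 3 had both this interval and the *Rag2* start interval open, while NKT and CD4SP replicate 2 had neither. ILCP had only the start interval open, and CLP replicate 1 and CD4SP replicate 1 only Rag interval 8.

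Dntt interval 8 lay between genes at -6.9 kb from the *Dntt* start, where minus means upstream. It ranked in the upper 49.6%, 19.3% and 18.5% in CLP and in the upper 92.6% in CD4SP replicate 2, and was closed in the other CD4SP library, in NKT and in ILCP. Dntt interval 9, at -2.0 kb, was open in all CLP libraries (upper 85.4%, 44.5% and 41.9%) and both CD4SP libraries (upper 49.4% and 61.7%) but in no NKT or ILCP library, so it was called in both comparisons. It chains separate peaks: the CD4SP replicate 1 peak in the upper 49.4% overlapped no CLP peak, and a peak of that library that did ranked in the upper 97.9%. Dntt interval 11, with its midpoint in intron 3 of *Dntt*, was open in every library but those of ILCP: the upper 34.7% and 41.6% in CD4SP, 36.8% and 76.7% in NKT, and 62.8%, 34.3% and 27.1% in CLP. All 3 centres held an E-box and 2 of them a Runx word.

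Over the 34 centres, an E-box was found in 21 (9 around *Rag1* and *Rag2*, 12 around *Dntt*), against 27.4% of the central 200 bases of all 71400 intervals. A Runx word was in 10 (28.5% of all), an Ets word in 12 (39.0%), a Myb word in 16 (38.9%), an Ikaros word in 3 (14.0%), a Gata word in 2 (9.7%) and a Foxo word in 1 (2.5%). These are counts of letters in the members and no test was made of them.

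The ILCP libraries were not without peaks around *Rag1* and *Rag2*. Rag interval 1, between genes at -73.3 kb from the *Rag2* start, was open in both ILCP libraries, in the upper 21.6% and 25.3%, and in 0 of the 7 others. The share of all intervals with that pattern was not computed, and 8.67% met the weaker rule of ILCP against CLP. Rag interval 10, 4.0 kb past the *Rag2* start, had its midpoint in the last intron of *Rag2* and reached 234 bp of its coding sequence. Both ILCP libraries ranked it in the upper 11.2%, CLP replicates 1, 2 and 3 in the upper 47.9%, 32.4% and 35.3%, the CD4SP libraries in the upper 40.9% and 33.9% and NKT replicate 2 in the upper 71.1%, with no peak in NKT replicate 1. ILCP thus ranked it above every CLP library, and NKT below both CD4SP libraries; of the 28155 intervals open in at least 1 library of each tissue, 4.49% had opposite orders of this kind, with a library without a peak placed last. An annotated start of *B230118H07Rik* lies within 1 kb of it, so the peak cannot be assigned to 1 of the genes.

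The centres of these intervals, chosen for printing after their values were seen, read as follows on the plus strand of GRCm38.p6, with capitals as above.
Rag interval 1, chr2:101551366-101551565: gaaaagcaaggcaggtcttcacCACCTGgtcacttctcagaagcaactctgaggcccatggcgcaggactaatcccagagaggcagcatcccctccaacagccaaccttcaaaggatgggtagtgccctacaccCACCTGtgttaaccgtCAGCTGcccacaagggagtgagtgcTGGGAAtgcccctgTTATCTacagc
Rag interval 10, chr2:101628653-101628852: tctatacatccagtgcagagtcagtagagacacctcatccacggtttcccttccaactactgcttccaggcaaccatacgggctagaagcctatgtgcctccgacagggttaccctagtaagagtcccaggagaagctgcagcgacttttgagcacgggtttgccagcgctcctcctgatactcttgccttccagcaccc
The centre of Rag interval 1 held 3 E-boxes, an Ikaros word and a Gata word, and that of Rag interval 10 held none of the 7 kinds of word.

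**Figure D3:**
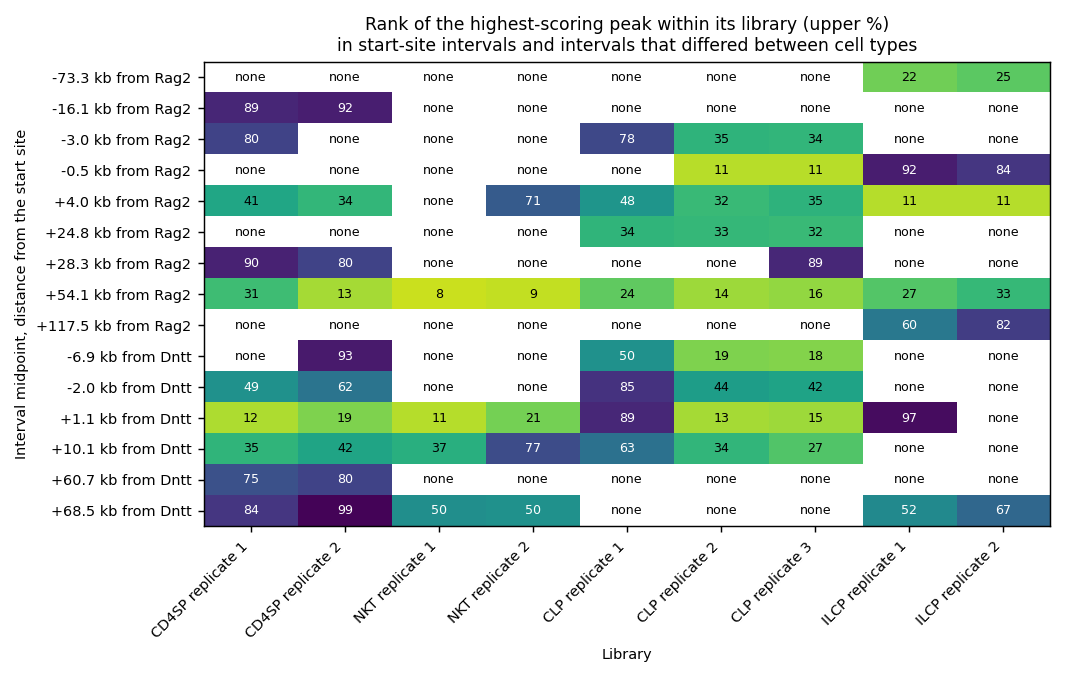
Rank within its library (upper % of peaks) of the highest-scoring peak in start-site intervals and in intervals called different between cell types, 1 interval per row and 1 library per column; "none" marks a library with no peak. The *Rag1* start (24.8 kb from *Rag2*) is filled in the 3 CLP columns only, at 32 to 34, and the interval at 4.0 kb is highest in the 2 ILCP columns, at 11.

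The remaining called intervals were of low rank. Rag interval 4, at -16.1 kb from *Rag2*, was open in CD4SP alone, in the upper 89.4% and 91.5%. Rag interval 13, at -3.5 kb from *Rag1*, was open in CD4SP (upper 90.4% and 79.7%) and CLP replicate 3 (upper 88.8%). Dntt interval 15, in an intron of *Tll2*, was open in CD4SP alone (upper 75.3% and 79.7%). Rag interval 18, in an intron of *Prr5l*, was open in ILCP alone (upper 60.1% and 81.7%). Dntt interval 16, in *Tll2*, was called for ILCP against CLP (upper 52.5% and 66.7%) and was open in all 4 thymic libraries too, in the upper 84.2% and 99% in CD4SP and 50.5% and 49.5% in NKT. It was the single *Dntt* peak of ILCP replicate 2, and lies within another gene.

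**Figure D4:**
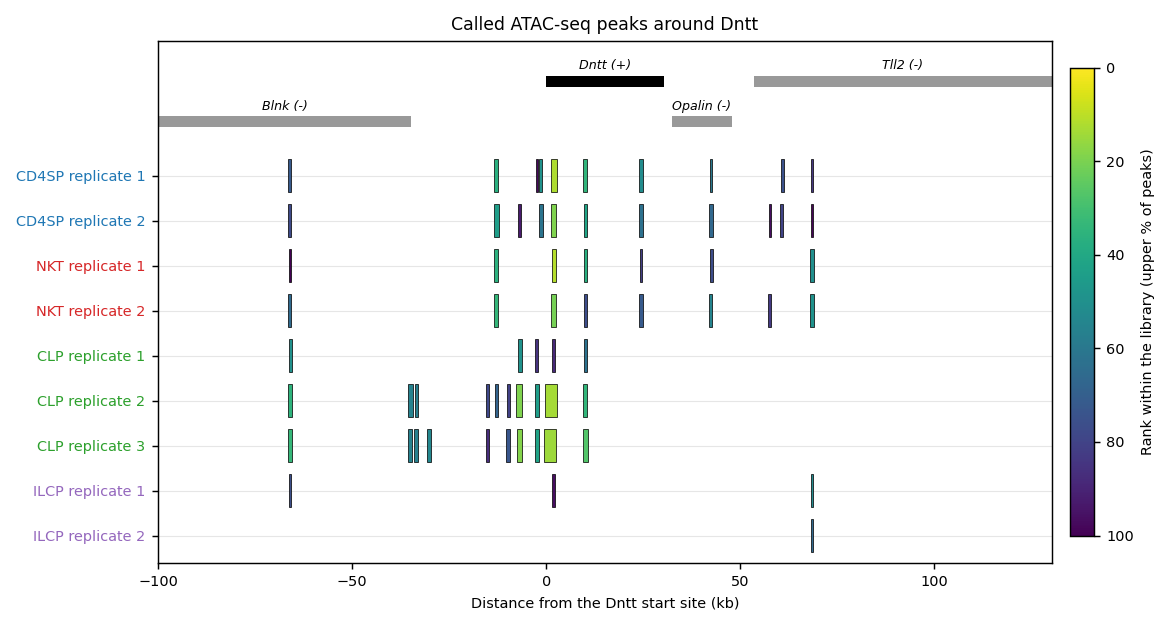
Called ATAC-seq peaks around *Dntt* in the 9 libraries, with distance from the *Dntt* start site in kb on the x axis and 1 library per row. Boxes are peaks at true width coloured by rank within the library (upper % of peaks), the black bar is *Dntt* and grey bars are other genes. The ILCP rows hold 3 and 1 boxes against 5 to 11 in the other rows, and the box at the start is widest in CLP replicates 2 and 3.

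By tissue, the members were spread much as all intervals were. Of the 18 Rag intervals, 3 were open in thymic libraries only, 6 in bone marrow only and 9 in both; of the 16 *Dntt* intervals, the numbers were 4, 5 and 7. Over all intervals the shares were 27%, 33.6% and 39.4%. Thymic intervals open in all 4 thymic libraries and no bone marrow library were Rag interval 11, in the gap between the 2 genes (upper 46.8% and 43.4% in CD4SP, 83.8% and 83.9% in NKT), Rag interval 15, at -22.6 kb from *Rag1* (53.5%, 71.7%, 75.5% and 81%), and around *Dntt* interval 12, with its midpoint in intron 9 of the gene (51.9%, 63%, 81.9% and 72.1%), and interval 13, in *Opalin* (59.8%, 66.6%, 76.9% and 54.7%). Dntt interval 6, at -12.9 kb from the start, was open in the 4 thymic libraries (upper 33.7% to 44.3%) and in CLP replicate 2 (upper 68.7%). Rag interval 6, at -8.6 kb from *Rag2*, was open in every library but CLP replicate 1, in the upper 22.6% to 59.7%.

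Only 1 of the 34 intervals was open in all 9 libraries, against 13.3% of all intervals. It was Rag interval 16, over the start of *Traf6*, which encodes a ubiquitin ligase of receptor signalling and lies next to *Rag1*. It ranked in the upper 30.9% and 13.3% in CD4SP, 8.18% and 9.22% in NKT, 24.4%, 14.5% and 16.1% in CLP and 26.8% and 33% in ILCP. Upstream of *Dntt*, the start of *Blnk*, a B cell adaptor gene, had 2 intervals that were open in CLP replicates 2 and 3 only, in the upper 56.1% to 57.2%. Rag interval 17, in an intron of *Prr5l*, ranked high in all bone marrow libraries (upper 8.08%, 7.25% and 8.38% in CLP, 3.38% and 5.36% in ILCP) and low or closed in the thymus (upper 86.5% in CD4SP replicate 2, closed in replicate 1, 60.1% and 63.4% in NKT).

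CLP replicate 1 was a subset of the other CLP libraries at both loci. All 5 of its Rag intervals and all 5 of its *Dntt* intervals were open in replicates 2 and 3, which shared 7 Rag and 4 *Dntt* intervals that replicate 1 lacked. Without replicate 1, CLP had 6 Rag intervals and 7 *Dntt* intervals open against ILCP, in place of 2 and 3, and 3 and 4 open against all other types, in place of 1 and 0. Its low number of peaks moved with these counts, and the part of depth in them was not tested.

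Most genes that act with RAG1, RAG2 and TdT were open at the start in every library. Of 17 genes for end joining and RAG cofactors, 13 had an interval open within 1 kb of the start in all 9 libraries, against 29.6% of all genes, and 0 were called in any of the 5 comparisons, in which 0.237% to 1.54% of all genes were. *Prkdc*, which encodes the catalytic subunit of DNA-PK, ranked in the upper 0.259% to 1.85% in every library, and *Dclre1c*, which encodes the hairpin-opening nuclease Artemis, in the upper 0.212% to 10.4%. *Xrcc6* and *Kpna1* had no interval at the annotated start, *Poll* was open in 5 libraries and *Lig3* in 6, with neither open in ILCP. *Polm*, which like *Dntt* encodes a polymerase of the same family, was open in all 9, in the upper 16.1% to 41.3% outside ILCP and in the upper 69.7% and 81.7% in ILCP.

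Of 15 genes for factors known to act at the Rag locus, 4 (*Tcf3*, *Satb1*, *Ebf1* and *Bcl11a*) were open at the start in all 9 libraries and *Pax5* in none. *Runx1* was the 1 gene called, for CLP against ILCP, as 1.54% of all genes were. It was open in CLP (upper 58.7%, 34.8% and 36.8%) and in the thymic libraries (upper 16.5% to 25.8%). Neither ILCP library had a peak at its annotated start. The paper reports Runx1 protein bound at *Zbtb16* in lineage-negative, IL-7Ra and a4b7 positive bone marrow cells. The lack of a peak at this start thus does not show the gene to be off in ILCP. *Tcf12*, which encodes an E protein that binds E-boxes, was open in 4 libraries and in none of ILCP, and *Foxo1*, which encodes a forkhead factor, in 7, among them ILCP replicate 2 alone of its type (upper 80.4%). These lists were chosen with results of these data known.

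The genes whose peak numbers followed the members most closely were found over the 9 libraries from peaks per 10,000 within the body extended by 20 kb. For the Rag locus, of 1540 genes with at least as many peaks, the highest Pearson r were 0.887 (*Pde7a*), 0.858 (*E130114P18Rik*), 0.819 (*Slco3a1*) and 0.816 (*Pcdhga2* and *Pcdhga3*, which share a window). For *Dntt*, of 2046 genes, they were 0.964 (*Mogs*), 0.958 (*Tbc1d22a*), 0.949 (*Wbp1* and *Ino80b*, neighbours of *Mogs*) and 0.947 (*Phlpp1*), and 26 genes exceeded 0.9 where none did for the Rag locus. The 9 points of each correlation are libraries that differ in their number of peaks as well as in cell type.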

How the data were processed

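ATAC-seq peak lists of 9 libraries were used; the Runx1 ChIP-seq library of NKT cells and the input were not analysed here. The authors aligned reads to mm10 with bowtie and ran MACS on the libraries 1 by 1, and the deposited lists hold peak positions and the caller's score. The submitters' notes also name HOMER, which the methods use for ChIP-seq, and Picard, whose role is not given in the sources used here. MACS version and settings, removal of duplicates, a shift for the transposase and the depth of each library are not given in the sources used here, so the deposited score (120 or more in every library) was used only to rank peaks within a library, and no counting interval was possible. The labels place the libraries in groups; the study's methods speak of biological replicates.

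Positions were converted to start from 1. Peaks overlapping by at least 1 bp in any library were merged into intervals (Python 3.11.15, pandas 2.3.3, numpy 2.4.6) and annotated with GENCODE M21 on GRCm38.p6; 0 peaks ended past the end of their chromosome. An interval was called for a type when open in all its libraries and in none of the type compared. Mean numbers of peaks were compared by two-sided exact permutation of the library labels (numpy 2.4.6), adjusted by the Benjamini-Hochberg method over 8 tests (statsmodels 0.14.6). Merging, calls and the permutation test were tested on simulated data. Figures were drawn with matplotlib 3.10.9.

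Named were the members, other genes with a start in the windows and an interval within 1 kb of it, all called and start-site intervals, the 5 genes most like each locus in peaks per 10,000 over the libraries (more than 1 Mb away, at least as many peaks), lists of pathway genes and cell type markers, and matches to 7 motifs. A marker in the lists is not reported here. Other names were chosen after the values were seen. The members and lists were chosen with earlier results of these data known. Alternatives were other window sizes (50 kb, 20 kb and no extension), 19343 peaks per library, the higher-scoring 50%, peaks per 10,000, covered length, a replicate block, other rules for open, and each library left out.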

Additional observations from a re-analysis of the deposited data

Results flagged for a closer look

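Both results below were picked out because every NKT library lay on 1 side of every CD4SP library in rank and every ILCP library on the opposite side of every CLP library; the difference between the tissues was not tested, and 4.49% of the 28155 intervals open in at least 1 library of each tissue met this rule. Rag interval 10, in the last intron of *Rag2*, was lower in NKT (upper 71.1% or no peak) than in CD4SP (upper 33.9% and 40.9%) and higher in ILCP (upper 11.2% in both libraries) than in CLP (upper 32.4% to 47.9%). Rag interval 16, over the start of *Traf6*, was higher in NKT (upper 8.18% and 9.22%) than in CD4SP (upper 13.3% and 30.9%) and lower in ILCP (upper 26.8% and 33%) than in CLP (upper 14.5% to 24.4%).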

How the results depend on the processing

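Of 78 differences in peak number recomputed with another setting, 70 kept their direction and their side of the threshold of the exact permutation test. For 42 of the 78, so few libraries allow no p at or below it. These settings include the replicate block, which leaves out CLP replicate 3 since no ILCP library has its number. All other settings kept every library. The difference became 0 for Rag, ILCP minus CLP, with 19343 peaks per library, for *Dntt*, NKT minus CD4SP, with gene bodies not extended, and for Rag, CLP minus the rest, without peaks at other genes' starts. Per 10,000 peaks, the Rag difference between ILCP and CLP turned to 0.163, and with gene bodies not extended the *Dntt* difference between CLP and the other types turned to -0.167. The *Dntt* sum over both tissues missed the threshold of 0.05 with gene bodies not extended (-1.5), with the higher-scoring 50% of peaks (-4.5) and with a replicate block (-8.5; two-sided exact permutation p = 0.125). The cause was not tested. Replicate numbers were not shown to pair the samples: deviations of same-numbered libraries correlated at 0.42 for NKT with CD4SP and -0.03 for ILCP with CLP, over 2 numbers a tissue. The smallest p the block allows is 0.5 within a tissue and 0.125 for the sum, so no result could have passed.

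With 1 library left out, the Rag differences ranged from -4 to -2 (NKT minus CD4SP), -4.5 to -0.5 (ILCP minus CLP), -7.5 to -3.5 (sum) and 0.167 to 4.17 (CLP minus the rest), and the *Dntt* differences from -3.5 to -2.5, -8 to -5.33, -11 to -8.33 and 0.533 to 3.33. Rag intervals called ranged from 0 to 1 for NKT against CD4SP, 2 to 4 for CD4SP against NKT, 2 to 2 for ILCP against CLP, 2 to 6 for CLP against ILCP and 1 to 3 for CLP against all, and *Dntt* intervals were 0 to 0, 2 to 3, 1 to 1, 3 to 7 and 0 to 4; the highest CLP numbers came without CLP replicate 1. Beside it, a count moved by over 1.5 times without CD4SP replicate 2 (Rag, CD4SP against NKT 4 and NKT against CD4SP 1; *Dntt*, CLP against all 1), NKT replicate 1 (Rag, NKT against CD4SP 1), CD4SP replicate 1 (Rag, CLP against all 2) and ILCP replicate 1 (*Dntt*, CLP against ILCP 5).

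Of 24 other recounts of intervals, 13 stayed within 1.5 times. With intervals open in all but 1 library of the type, CLP against ILCP had 6 Rag and 7 *Dntt* intervals and CLP against all 3 and 4. With 19343 peaks per library, CLP against all had 2 Rag and 2 *Dntt* intervals, CLP against ILCP 5 *Dntt* intervals, NKT against CD4SP 1 and CD4SP against NKT 0. With peaks covering at least 50% of an interval, ILCP against CLP had 0 *Dntt* intervals and CLP against all 1. Depth per library is unknown, so none of these counts separates a closed site from a missed one.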
